A study of Mus musculus with 272 samples.

Results

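The genes described here are 10 components of the Notch pathway, the signalling route that holds muscle stem cells (MuSCs) in quiescence. They are the ligands *Dll1* and *Jag1*, the receptors *Notch1*, *Notch2* and *Notch3*, the DNA-binding effector *Rbpj*, and the target genes *Hes1*, *Hey1*, *Hey2* and *Heyl*. The members were taken by gene name from the GENCODE M21 annotation of mm10, where they are 10 of 21938 protein-coding genes and of 55413 genes in all. The rule uses gene names alone, but the members were chosen with earlier results of these data known. Promoter state was read within 3 kb either side of every annotated transcription start site, and all peaks inside each gene and within 50 kb either side were listed for every library.

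The study edited target sites in MuSCs of Pax7Cas9 mice and sequenced the repair outcomes, and 8 of its 272 samples are libraries of the chromatin of these cells. ATAC-seq, which detects open chromatin, was done in 2 replicates. So was ChIP-seq for 3 histone marks, namely H3K4me3, found at promoters, H3K27ac, found at promoters and enhancers in use, and H3K27me3, laid down by Polycomb repressors. All 8 libraries came from GFP+ MuSCs sorted from digested hindlimb muscle of Pax7Cas9 mice, which carry a Pax7 Cre driver and a Cre-dependent Cas9 and GFP allele. There was thus a single group and no untreated or mutant comparison. The age and sex of these mice and the number of animals per library are not given in the sources used here, so that the spread between replicates may be technical. Every cell that has expressed Pax7 since the Cre became active carries GFP, and the sort does not select quiescent cells as such.

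In Notch signalling, a ligand on one cell binds a receptor on its neighbour, the receptor is cut by ADAM proteases and then by γ-secretase, and the freed intracellular domain enters the nucleus. There it joins Rbpj and Mastermind coactivators at DNA and switches on genes such as those of the Hes and Hey families of bHLH repressors. In adult muscle this signalling is high in quiescent MuSCs, and loss of Rbpj lets them leave quiescence and differentiate. Without the receptor domain, Rbpj instead sits on DNA with corepressors.

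The authors called peaks in each library separately with MACS2. A peak's fold enrichment is the authors' value at the summit over the local background. On the 21 assembled chromosomes the smallest list, H3K27me3 replicate 1, held 6064 peaks, and the largest, ATAC-seq replicate 1, held 140716. Read numbers are not part of the lists. Depth is therefore unknown, no interval can be given, and a promoter without a listed peak is only unlisted. With 2 libraries per mark and 1 group no test was run, and each value is set beside the distribution over all genes. In a population of cells, more cells with a mark and more of the mark per cell cannot be told apart. The labelled cell type was checked against markers by counting promoters with a peak in both replicates. Of 11 MuSC markers, 11 had H3K4me3 and 10 had H3K27ac, *Calcr* being the one without. H3K27ac was found at 1 of 10 endothelial markers (*Tek*), 1 of 10 pericyte and smooth muscle markers (*Acta2*), 3 of 10 fibro-adipogenic markers and 1 of 8 blood markers. H3K4me3 was found at 5, 6, 5 and 3 markers of these lists, and ATAC-seq at 8, 8, 6 and 6. Over all protein-coding genes the shares were 46.6% for H3K27ac, 60.8% for H3K4me3 and 67.8% for ATAC-seq. Notch receptors, ligands and Hey genes are also active in endothelial cells and pericytes, and the part of such cells in the values below was not tested.

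Within 3 kb of any annotated start, all 10 genes carried the marks of active promoters, with 1 exception in 1 library. ATAC-seq peaks in both replicates were found at 10 of 10 promoters, against 67.8% of protein-coding genes. H3K4me3 in both replicates was found at 10 of 10, against 60.8%, and H3K27ac at 9 of 10, against 46.6%. The gene without a second H3K27ac peak was *Hey2*. All of these marks together were found at 9 of 10 promoters, against 46.2%. H3K27me3 in both replicates was found at 1 of 10 promoters, that of *Hes1*, against 4.81%. Active marks with no H3K27me3 in either replicate were found at 8 of 10, against 44.4%. These shares were not matched for the number of annotated starts. With starts at the 5′ end only, H3K4me3 in both replicates was found at 8 members and H3K27ac at 7. With promoters of 1 kb, ATAC-seq in both replicates was found at 9. Although each mark was present at nearly every member, its median strength lay near or below that of other marked genes. The median fold enrichment of the members' strongest promoter peaks was 9.40 and 8.96 for ATAC-seq in the 2 replicates, below the medians of 13.3 and 12.2 over all genes with such a peak. The H3K4me3 medians were 24.5 and 16.6 beside 23.9 and 17.6, and those of H3K27ac were 11.2 and 9.84 beside 13.9 and 11.95. Above the median of all genes lay 2 and 1 members by ATAC-seq, 5 and 5 by H3K4me3, and 4 and 4 by H3K27ac.

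**Figure D1:**
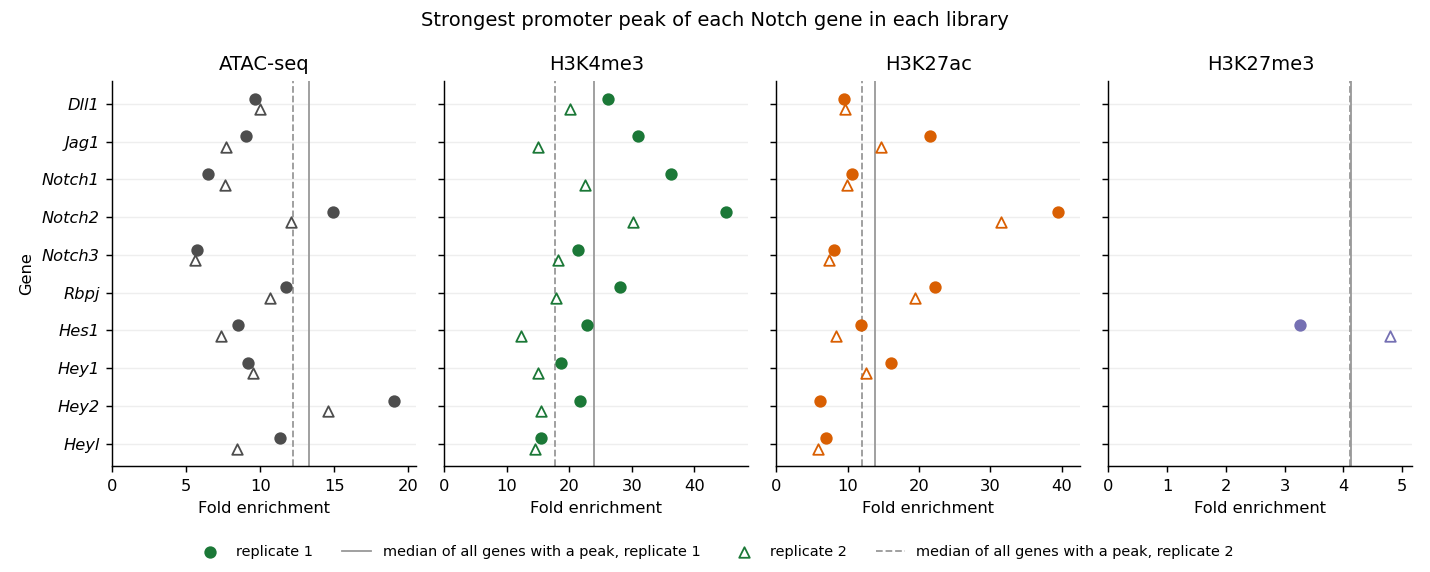
Fold enrichment (x axis, linear) of the strongest promoter peak of each Notch gene (rows) in each of the 8 libraries, filled circles for replicate 1 and open triangles for replicate 2, with the median over all genes that have such a peak as solid (replicate 1) and dashed (replicate 2) lines. Notch2 has the highest H3K4me3 and H3K27ac values, Hey2 the highest ATAC-seq values, and Hes1 is the only gene with H3K27me3.

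The ligand *Dll1* (chr17:15367354-15376872, minus strand), which signals between MuSCs and myogenic neighbours, had promoter H3K4me3 enriched 26.2-fold in replicate 1 and 20.0-fold in replicate 2. Its H3K27ac reached 9.51 and 9.56, and its ATAC-seq 9.62 and 9.97. H3K4me3 thus lay a little above the median of all genes and H3K27ac and ATAC-seq below it. Of its 6 annotated starts, 5 lay within H3K4me3 peaks of both replicates and only 1 of them, at position 15375976, within ATAC-seq peaks of both. The ATAC-seq values above belong to a narrow peak just beyond the 3′ end of the gene (15365816-15365972 in replicate 1), within 3 kb of the start at 15368390. Within 1 kb of the H3K4me3-marked starts the strongest ATAC-seq peaks reached 7.70 and 8.59, and they stood at different places in the 2 replicates, 15375791-15376291 and 15371963-15372242. Each place also had a peak in the other replicate, of 8.38 in replicate 2 at the first and 7.60 in replicate 1 at the second. The strongest H3K27ac peaks also stood at different places, 15372097-15372953 in replicate 1 and 15374461-15376026 in replicate 2, and both regions had a peak in each replicate.

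The ligand *Jag1* (chr2:137081456-137116644, minus strand) had H3K4me3 of 31.0 and 14.98, H3K27ac of 21.6 and 14.7, and ATAC-seq of 9.004 and 7.68. It was the member whose H3K4me3 differed most between replicates, with a log2 ratio of replicate 2 to replicate 1 of -1.05, where the ratio of all genes had a median of -0.45 and a 5th percentile of -0.86. Its rank among all genes moved accordingly from the 71.5th to the 39.5th percentile, so its level relative to other promoters is not settled by these 2 libraries. *Hes1* was the other member beyond that range, at -0.90.

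Among the receptors, *Notch2* (chr3:98013527-98150361, plus strand) had the strongest promoter H3K4me3 and H3K27ac of the 10 genes, and the second-highest ATAC-seq in replicate 1 and replicate 2 after *Hey2*. Its H3K4me3 was 45.1 and 30.3, its H3K27ac 39.5 and 31.5, and its ATAC-seq 14.9 and 12.1. The H3K27ac peak ranked 284 of 10996 genes in replicate 1 and 265 of 10316 in replicate 2, and the H3K4me3 peak ranked 418 of 13795 and 1101 of 13358. Both annotated starts of *Notch2* lay inside all these peaks. The sequence before its start is shown because these histone marks were strongest there. It is rich in CpG, with 34 CpG in 250 bases and a GC content of 72.0%, and holds none of the motifs searched below (all letters lower case).
Notch2 promoter, chr3:98013288-98013537, plus strand: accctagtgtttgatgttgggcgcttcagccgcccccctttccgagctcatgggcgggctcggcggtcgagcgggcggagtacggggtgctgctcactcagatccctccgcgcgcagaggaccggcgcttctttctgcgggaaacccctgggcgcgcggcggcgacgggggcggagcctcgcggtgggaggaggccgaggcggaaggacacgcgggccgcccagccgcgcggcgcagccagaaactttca

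*Notch1* (chr2:26457903-26516663, minus strand) had H3K4me3 of 36.3 and 22.4, second to *Notch2* in both replicates, and H3K27ac of 10.6 and 9.84. These marks did not lie at the annotated 5′ end of the gene. Of 11 annotated starts, those at 26503822 and 26503824 lay in ATAC-seq, H3K4me3 and H3K27ac peaks of both replicates. The start farthest upstream, at 26516663, lay in an ATAC-seq peak of replicate 1 alone and in no H3K4me3 or H3K27ac peak. ATAC-seq near the marked starts gave 6.45 and 6.32, and the strongest ATAC-seq peaks of the gene's promoters, 6.46 and 7.63, stood near the unmarked upstream start. The bases before the marked start are shown for that reason. Like those of *Notch2* they hold no searched motif, with 16 CpG in 250 bases.
Notch1 promoter, chr2:26503823-26504072, minus strand: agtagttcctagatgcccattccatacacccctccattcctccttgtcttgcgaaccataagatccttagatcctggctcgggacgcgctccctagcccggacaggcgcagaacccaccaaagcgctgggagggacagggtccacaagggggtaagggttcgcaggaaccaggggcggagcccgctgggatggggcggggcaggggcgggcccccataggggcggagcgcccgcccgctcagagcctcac

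*Notch3* (chr17:32120820-32166852, minus strand), a receptor of quiescent MuSCs and of vascular mural cells, had the weakest marks of the 3 receptors. Its H3K4me3 was 21.4 and 18.2, its H3K27ac 8.05 and 7.36, and its ATAC-seq 5.72 and 5.57, the lowest ATAC-seq of all members. Of its 3 starts, only that at 32166852 was marked by H3K4me3 and H3K27ac, and that start itself lay in no ATAC-seq peak. Within 1 kb of it replicate 1 had a single weak ATAC-seq peak of 2.90 and replicate 2 had none. Open chromatin lay instead inside the gene, within 32165563-32165740 and 32165542-32165732 in the 2 replicates. A second H3K4me3 peak stood in the gene body at 32161951-32164084 in replicate 1 and 32162133-32162983 in replicate 2, with 14.9 and 10.0.

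*Rbpj* (chr5:53466152-53657362, plus strand), which binds DNA for all Notch receptors, had H3K4me3 of 28.1 and 17.9, H3K27ac of 22.2 and 19.5 and ATAC-seq of 11.7 and 10.6. As at *Notch1*, the marked promoter was internal. Of 12 annotated starts, 4 lay in H3K4me3 and H3K27ac peaks of both replicates, between 53590214 and 53590981, and none of these peaks reached the 5′ end of the gene at 53466152. The ATAC-seq values above came from a peak before that upstream start (53463064-53463309 in replicate 1). Within 1 kb of the marked starts the strongest ATAC-seq peaks gave 9.99 and 9.07. They stood at different places in the 2 replicates, 53588941-53589533 and 53590171-53590751. The replicate 1 peak over the start at 53590214, at 53590090-53590881, gave 8.61. At the other place the replicate 2 peak, 53588926-53589540, gave 7.27.

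The targets differed from each other more in open chromatin and H3K27ac than in H3K4me3. *Hes1* (chr16:30064384-30067796, plus strand), a direct Notch target in many tissues, had H3K4me3 of 22.7 and 12.2, H3K27ac of 11.9 and 8.38 and ATAC-seq of 8.51 and 7.31. All 4 of its starts lay in H3K4me3 peaks of both replicates. A further H3K4me3 peak stood downstream of the gene at 30069858-30070917 in replicate 1 and 30069970-30071036 in replicate 2, with 11.7 and 8.22.

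*Hey1* (chr3:8663359-8667256, minus strand) had H3K4me3 of 18.7 and 14.97, H3K27ac of 16.1 and 12.5 and ATAC-seq of 9.18 and 9.47. Its H3K27ac was the highest of the 4 targets in both replicates. *Heyl* (chr4:123233556-123249875, plus strand) had H3K4me3 of 15.4 and 14.5, H3K27ac of 6.90 and 5.88 and ATAC-seq of 11.3 and 8.45. Its promoter windows held 6 H3K27ac peaks in each replicate, so that the mark was spread over several weak peaks.

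*Hey2* (chr10:30832359-30842801, minus strand) combined the most open promoter of the 10 genes with the least H3K27ac. Its ATAC-seq was 19.02 and 14.6, at the 81.9th and 66.8th percentile of all genes with a peak. Its H3K4me3 was 21.7 and 15.4. H3K27ac gave a peak of 6.13, 432 bp wide, in replicate 1 and none in replicate 2, and no H3K27me3 peak was listed in either. This combination over the 8 lists was shared with 2.53% of protein-coding genes, while 8 members shared theirs with 44.3%.

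The members stood out by the width of H3K4me3 rather than by its height. The strongest promoter peak was 5540 and 4390 bp wide at *Dll1*, 5353 and 4785 bp at *Hey1*, 4480 and 4349 bp at *Jag1*, and 4663 and 3720 bp at *Heyl*. At *Hey1* it covered the whole gene in replicate 1. The median width over the members was 4233.5 bp in replicate 1 and 3084.5 bp in replicate 2, against 1615 and 1337.5 bp over all genes with a peak. The widest 10% of promoter peaks began at 2915 and 2407 bp. Among them in both replicates lay 7 of 10 members, against 4.71% of protein-coding genes. The 4.71% is 1034 of all 21938, of which 13328 had H3K4me3 in both replicates and could qualify. The other members were *Notch3* and *Hey2*, below this width in both replicates, and *Hes1*. The latter had 4863 bp in replicate 1 and 1916 bp in replicate 2, where the region was listed as separate peaks. Wide peaks at *Hey1* and *Heyl* went with H3K4me3 heights below the median of all genes, 18.7 and 15.4 in replicate 1. The measure was chosen after the peaks had been seen.

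**Figure D2:**
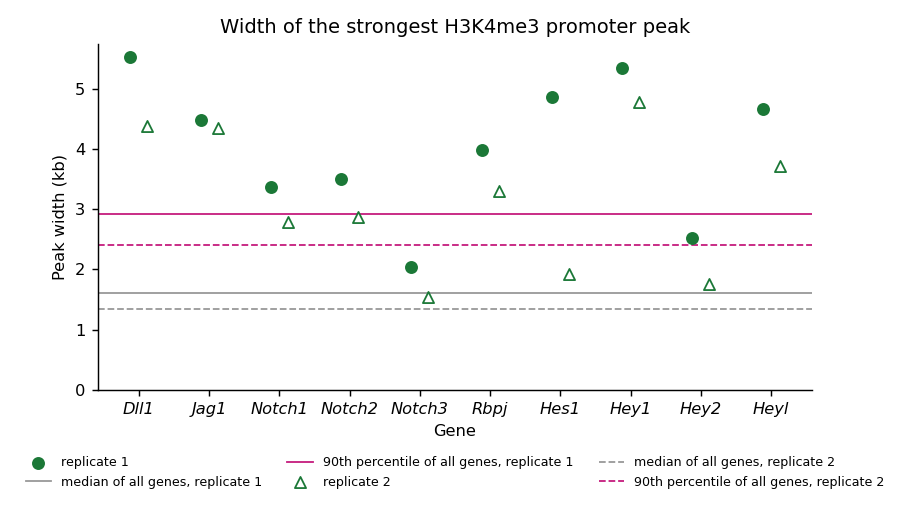
Width in kb (y axis, from 0) of the strongest H3K4me3 promoter peak of each Notch gene, filled circles for replicate 1 and open triangles for replicate 2, with the median (grey) and 90th percentile (magenta) over all protein-coding genes with a peak, solid for replicate 1 and dashed for replicate 2. In both replicates 7 genes lie at or above the 90th percentile, and Hes1 falls from 4863 to 1916 bp.

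H3K27me3 peaks were listed in 4 of the 10 windows and in neither replicate of the other 6, while 74.6% of protein-coding genes had none in theirs. *Hes1*, with 2.90 and 6.77 peaks per 100 kb, lay above 96.0% of genes. None of the listed peaks recurred. Within the 10 windows 4 peaks were listed in replicate 1 and 11 in replicate 2, and 0 of them overlapped a peak of the other replicate, whereas over the whole lists 68.3% of the peaks of replicate 1 and 34.8% of those of replicate 2 did. Of these 15 peaks, 10 lay around *Hes1*, 3 in replicate 1 and 7 in replicate 2. The promoter of *Hes1* counted as marked through peaks at different places. One was an 84 bp peak at 30068825-30068908 in replicate 1, enriched 3.26-fold with a −log10 q of 0.454, and the other a 249 bp peak at 30061797-30062045 in replicate 2, with 4.79 and 3.35. The wide H3K4me3 domain lies between them. A cluster in replicate 2 stood downstream, from 30097753 to 30109134, and the 1 peak of replicate 1 there missed the nearest of them by 131 bp. The H3K27me3 lists reach down to a −log10 q of 0 in replicate 1 and 0.0295 in replicate 2. With peaks of a q-value of at most 0.05 alone no member promoter was marked in both replicates. *Heyl* had 2 peaks in replicate 2, both at the promoter of its neighbour *Hpcal4*, *Dll1* had 2 in replicate 2, and *Rbpj* had 1 in replicate 1.

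Counted over each gene and 50 kb either side, the members lay in windows dense in listed ATAC-seq and H3K27ac peaks. The 10 windows held 244 and 196 ATAC-seq peaks, 47 and 33 H3K4me3 peaks, and 92 and 65 H3K27ac peaks. Of the ATAC-seq peaks, 74.6% and 85.2% overlapped a peak of the other replicate, against 62.9% and 84.7% over the whole lists. For H3K4me3 the shares were 59.6% and 100%, against 79.0% and 98.7%. For H3K27ac they were 58.7% and 86.2%, against 64.6% and 91.0%. Peaks listed in a single replicate are part of the counts. As the windows differ in length, from 103413 bp at *Hes1* to 291211 bp at *Rbpj*, counts were set per 100 kb. The median of the members was 14.2 ATAC-seq peaks per 100 kb against 7.22 over all protein-coding genes, and 4.91 H3K27ac peaks against 1.33. H3K4me3 gave 2.37 against 1.54. The comparison with all genes includes those with silent promoters. Against the 9730 genes in the same active promoter state, whose medians were 10.1, 2.56 and 2.35, 8 members lay above for ATAC-seq, 7 for H3K27ac and 5 for H3K4me3.

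For H3K27ac the densest window was that of *Heyl*, with 12.04 and 9.46 peaks per 100 kb, higher than at 98.8% of genes. Of its 14 and 11 H3K27ac peaks, 6 and 6 lay at its own promoter and 3 and 2 at promoters of other genes. *Notch1* followed with 10.7 and 6.93 and *Notch2* with 9.71 and 5.91. By the mean of the replicates *Hey2* was the sparsest, with 2.72 and 0.905, and it was also the sparsest in ATAC-seq, with 7.24 and 4.53. The same order was not kept by ATAC-seq, where *Notch1* with 22.7 and 21.4 and *Notch3* with 21.9 and 20.5 came first by that mean. Neighbouring genes share these windows. Around *Notch1*, for example, the promoters of *Inpp5e* and *Sec16a* were marked as well. Around *Notch2* the only other protein-coding gene with a start in the window, *Adam30*, had no promoter peak in any library, and around *Rbpj* the only one, *Cckar*, had a single ATAC-seq peak in replicate 1.

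**Figure D3:**
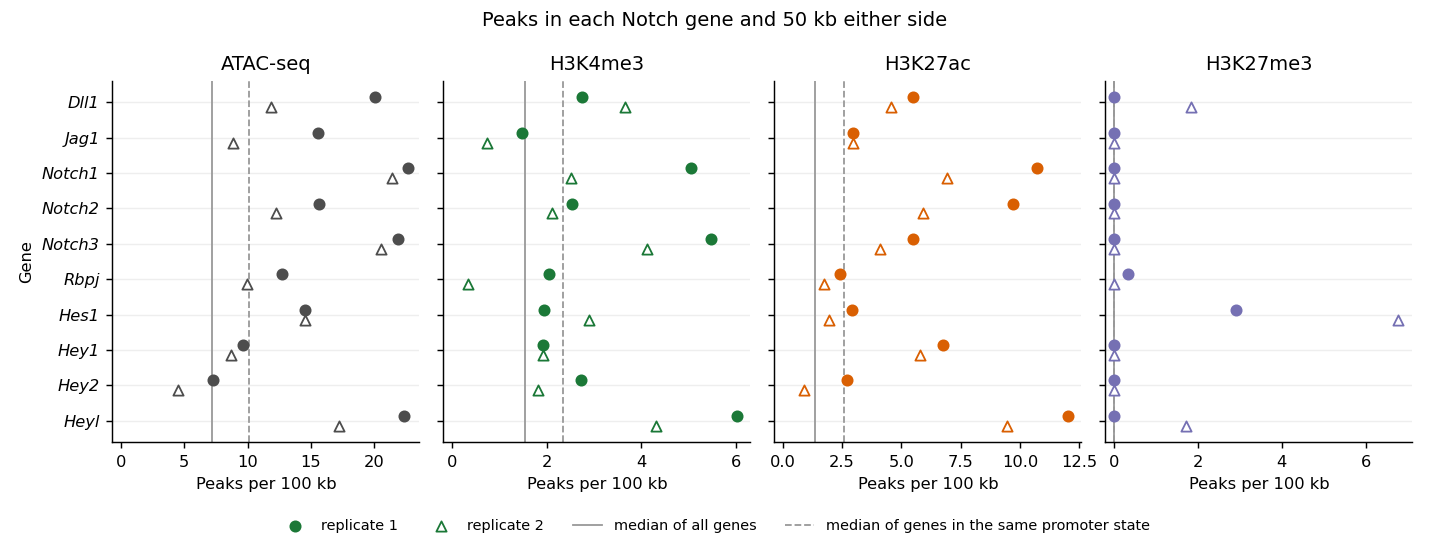
Peaks per 100 kb (x axis, linear) in each Notch gene and 50 kb either side for the 4 marks, filled circles for replicate 1 and open triangles for replicate 2, with the median over all protein-coding genes (solid line) and over the 9730 genes in the same active promoter state (dashed line). Heyl, Notch1 and Notch2 have the most H3K27ac peaks, and Hes1 has most of the H3K27me3 peaks.

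Candidate distal elements were ATAC-seq peaks of replicate 1 that overlapped an ATAC-seq peak of replicate 2 and an H3K27ac peak of each replicate, over 3 kb from every annotated start. The windows of the members held 21 of the 4000 found in the genome. This count depended on the setting, and was 35 from replicate 1 alone, 11 with peaks of a −log10 q of 5 or more, and 10 with the ATAC-seq summit required inside the H3K27ac peak. At least 1 was found at 6 of 10 members, against 14.7% of all protein-coding genes and 22.2% of those in the same active promoter state. *Notch2* had 8, *Rbpj* 5, *Notch1* and *Heyl* 3 each, and *Notch3* and *Jag1* 1 each, while *Dll1*, *Hes1*, *Hey1* and *Hey2* had 0. By count most elements thus lay at the receptors and *Rbpj*, and of the targets only *Heyl* had any. The members with 0 have the shortest windows, and *Rbpj* and *Notch2* have the longest. Per 100 kb *Notch2* had 3.38, *Heyl* 2.58, *Notch1* 1.89, *Rbpj* 1.72, *Jag1* 0.740 and *Notch3* 0.685. The share of members with at least 1 was not matched for window length. Neighbouring ATAC-seq peaks of replicate 1 were counted as separate elements, also where they overlapped the same H3K27ac peak, as at *Notch2*, *Rbpj* and *Heyl*. At *Notch2*, those at 98042417-98042482 and 98042487-98042568 overlapped the same ATAC-seq peak of replicate 2. In all, 14 lay in introns of the member and 13 within 50 kb of no other protein-coding gene.

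At *Notch2* all 8 elements lay in introns, 10852 to 33081 bp downstream of the start. The strongest by the lower of its H3K27ac values, at chr3:98025665-98025859, lay under an H3K27ac domain of 98024554-98028576 in replicate 1 and 98024716-98028580 in replicate 2, with 10.7 and 9.19, values it shared with the element next to it at 98026010-98026290. Its own ATAC-seq was weak, 4.83 and 4.60, and it also overlapped H3K4me3 peaks of 4.17 and 5.05. The H3K27ac domain itself reached, in each replicate, to within 3 kb of an annotated start of another gene. Which gene this acetylation belongs to was not tested. At *Rbpj* the strongest, chr5:53509399-53509976, lay in an intron 80551 bp upstream of the marked promoters, with H3K27ac of 8.81 and 8.09 and ATAC-seq of 14.6 and 16.3. Its 5 elements all lay on the upstream side, the farthest 139043 bp away before the annotated 5′ end. At *Jag1* the single element, chr2:137109896-137110216, was intronic, 6549 bp downstream of the start, with H3K27ac of 5.75 and 8.09 and ATAC-seq of 7.98 and 9.96. At *Notch3* the single element, chr17:32162184-32162399, lay in an intron 4543 bp downstream, with H3K27ac of 4.60 and 5.88, and it overlapped the second H3K4me3 peak described above.

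The 3 elements of *Notch1* lay 28173 to 30957 bp upstream of the marked start, outside the gene. The strongest, chr2:26534642-26534957, had H3K27ac of 9.20 and 6.25 and ATAC-seq of 8.10 and 7.98. These elements also lie within 50 kb of *Egfl7*, an endothelial gene whose promoter had H3K4me3 of 14.4 and 8.62 and ATAC-seq of 12.8 and 7.79 but no H3K27ac peak in either replicate. Which gene they act on was not tested. The 3 elements of *Heyl* lay 5154 to 7424 bp upstream and shared their surroundings with *Hpcal4*, *Nt5c1a* and *Pabpc4*. The strongest of them, chr4:123225926-123226372, had H3K27ac of 6.51 and 6.25 and ATAC-seq of 14.4 and 14.7.

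**Figure D4:**
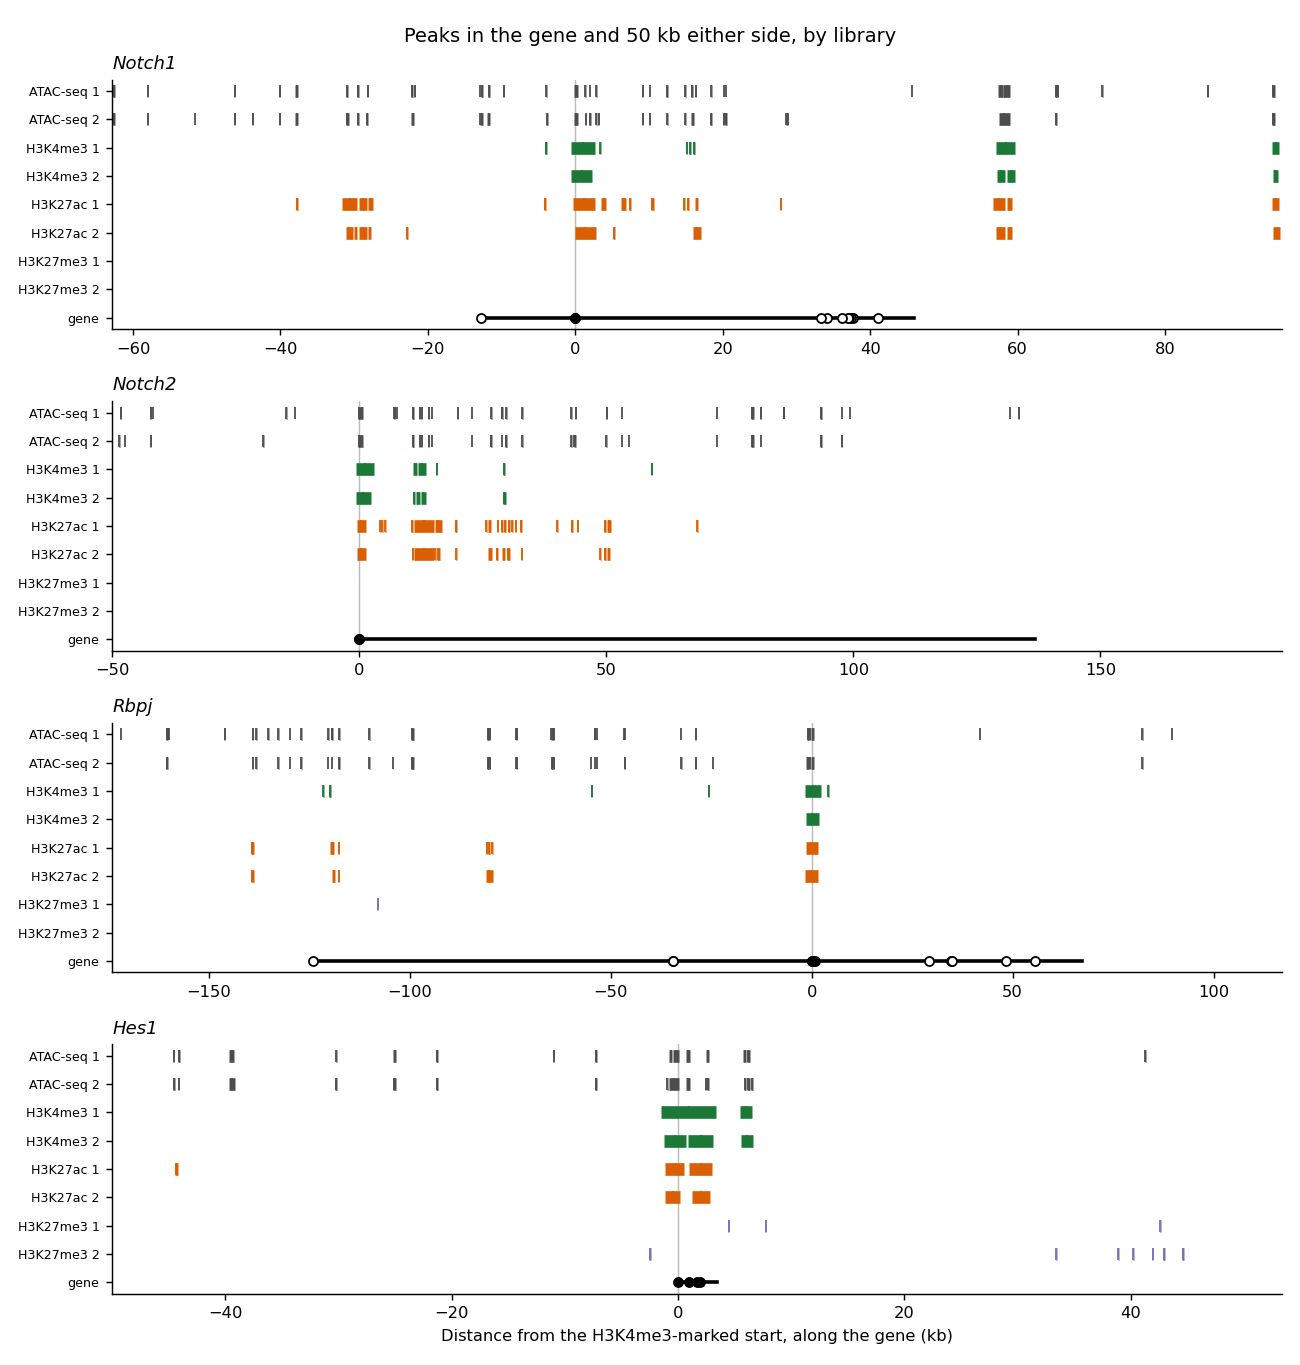
Peaks of the 8 libraries around Notch1, Notch2, Rbpj and Hes1 by distance in kb from the H3K4me3-marked start along the gene (x axis), with a bar for each peak and a tick at its middle, so that narrow peaks appear wider than they are. The line at the bottom of each panel is the gene, with filled circles for starts inside H3K4me3 peaks of both replicates and open circles for other starts. The marked starts of Notch1 and Rbpj lie inside the gene, Notch2 has several separate H3K27ac peaks downstream of its start, and H3K27me3 peaks around Hes1 differ between replicates.

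The 200 bases centred on the ATAC-seq summit of the strongest element are shown for the receptors, *Rbpj* and *Jag1*, and that of *Heyl* is not. Sequence was read from GRCm38.p6, which is mm10. Capitals mark letters searched for on both strands: TGGGAA, the core bound by Rbpj, its longer form CGTGGGAA, the E-box CAGCTG bound by myogenic bHLH factors, and TGANTCA bound by AP-1. The longer form contains the core.
Notch1 element, chr2:26534681-26534880, plus strand: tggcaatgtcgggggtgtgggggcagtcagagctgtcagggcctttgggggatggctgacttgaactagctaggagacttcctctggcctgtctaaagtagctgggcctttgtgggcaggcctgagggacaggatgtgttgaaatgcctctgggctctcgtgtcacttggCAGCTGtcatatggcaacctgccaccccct
Notch2 element, chr3:98025695-98025894, plus strand: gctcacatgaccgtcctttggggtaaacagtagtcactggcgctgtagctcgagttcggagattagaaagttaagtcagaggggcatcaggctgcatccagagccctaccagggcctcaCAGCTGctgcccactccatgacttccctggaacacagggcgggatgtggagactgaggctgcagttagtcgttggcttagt
Notch3 element, chr17:32162209-32162408, plus strand: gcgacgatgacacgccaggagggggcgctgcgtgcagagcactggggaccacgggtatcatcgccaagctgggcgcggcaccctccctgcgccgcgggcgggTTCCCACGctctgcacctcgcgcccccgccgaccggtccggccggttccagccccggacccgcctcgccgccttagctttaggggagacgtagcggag
Rbpj element, chr5:53509563-53509762, plus strand: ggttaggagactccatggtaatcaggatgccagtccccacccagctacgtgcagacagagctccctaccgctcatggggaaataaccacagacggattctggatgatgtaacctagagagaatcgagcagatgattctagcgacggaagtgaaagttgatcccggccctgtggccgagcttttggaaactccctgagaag
Jag1 element, chr2:137109995-137110194, plus strand: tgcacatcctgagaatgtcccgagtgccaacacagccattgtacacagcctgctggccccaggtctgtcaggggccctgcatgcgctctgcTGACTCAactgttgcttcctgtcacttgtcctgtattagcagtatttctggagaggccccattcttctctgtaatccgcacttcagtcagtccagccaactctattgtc
The *Notch1* and *Notch2* elements hold 1 E-box each, the *Jag1* element 1 AP-1 match, the *Notch3* element 1 CGTGGGAA on the minus strand, and the *Rbpj* element no match. Over the 21 elements, in 300 bp around each summit, 12 held the E-box, or 57.1%, against 43.3% of all 4000 distal elements. TGGGAA was held by 8, or 38.1%, against 32%, and TGANTCA by 5, or 23.8%, against 25.4%. With 21 windows, some of them overlapping, such shares are coarse.

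The longer form CGTGGGAA was rare around ATAC-seq summits in general and less rare around those in the members' windows. In 300 bp around the summits of all ATAC-seq peaks in the windows, 9 of 244 in replicate 1 and 11 of 196 in replicate 2 held it, or 3.69% and 5.61%, against 0.730% and 0.816% of all ATAC-seq peaks of the same lists. TGGGAA alone was held by 38.9% and 38.3%, against 26.8% and 27.1%. The E-box was held by 34.8% and 39.3%, against 27.5% and 32.7%, and AP-1 by 18.9% and 16.3%, against 19.8% and 23.4%. Windows around neighbouring summits overlap, and the CGTGGGAA matches came down to 11 distinct places at 7 genes, 8 of them found under summits of both replicates and 5 within 3 kb of an H3K4me3-marked start. There were 3 at *Notch1*, 2 at *Notch3*, 2 at *Heyl*, and 1 each at *Rbpj*, *Hey1*, *Hey2* and *Jag1*, while *Notch2*, *Dll1* and *Hes1* had none under a summit. A match is only a run of letters, and binding was not measured.

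Of the places that both replicates shared, 5 are shown with 30 bases each, on the strand that reads CGTGGGAA, with the match in capitals.
Notch1 site, chr2:26516515-26516544, plus strand: aagtccgacagCGTGGGAAatactcacagt
Notch3 site, chr17:32162300-32162329, minus strand: gaggtgcagagCGTGGGAAcccgcccgcgg
Notch3 site, chr17:32164376-32164405, minus strand: gggtggggggcCGTGGGAActgtagatagg
Rbpj site, chr5:53589312-53589341, minus strand: acaacacgggcCGTGGGAAatttcctaagc
Hey2 site, chr10:30842972-30843001, plus strand: gttggcagaggCGTGGGAAtgccaccgcgc
The *Hey2* match shown lay 185 bp upstream of its start, under the most open promoter of the 10 genes, and that of *Rbpj* lay 888 bp upstream of the marked starts. The *Notch1* match shown lay 12705 bp upstream of the marked start, beside the unmarked 5′ start. Those of *Notch3* lay 2462 and 4538 bp downstream of its start. One match at *Heyl* stood 131 bp downstream of its start. Of the members, 7 had entries in the RefSeq promoter table of the same build, with 9 promoters from 250 bases before to 50 after the start. *Hes1*, *Hey1* and *Heyl* had none. CGTGGGAA was held by 1 of these 9, that of *Hey2* with 2 matches in its 300 bases, against 0.734% of 32851 RefSeq promoters, and TGGGAA by 3, against 25.6%. One *Dll1* promoter held both an E-box and an AP-1 match and is shown as the only member promoter with matches to both. It lies upstream of the annotated start at 15376872. That start lay in H3K4me3 peaks of both replicates, in H3K27ac of replicate 1 alone and in no ATAC-seq peak. The *Dll1* promoter at the start in ATAC-seq peaks of both replicates, chr17:15375824-15376073, held none of the searched motifs.
Dll1 promoter, chr17:15376933-15377182, minus strand: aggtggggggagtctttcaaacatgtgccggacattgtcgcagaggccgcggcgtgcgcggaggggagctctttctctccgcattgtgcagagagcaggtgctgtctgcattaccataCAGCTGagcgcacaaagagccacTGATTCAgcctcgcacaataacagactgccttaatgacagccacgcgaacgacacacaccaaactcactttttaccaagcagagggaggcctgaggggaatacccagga
CAGCTG was held by 16.3% and TGANTCA by 7.81% of all RefSeq promoters of this length.

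By the 8 promoter values on the log2(1 + fold) scale, the members closest to each other were *Rbpj* and *Jag1*, at a Euclidean distance of 0.72, followed by *Notch1* and *Dll1* at 0.80. The farthest apart were *Notch2* and *Hey2*, at 5.79. A promoter without a listed peak entered as 0, as did *Hey2* for H3K27ac in replicate 2. Over all protein-coding genes, the one closest to *Notch1* was *Anxa11* (distance 0.31), to *Notch2* *Med15* (0.24), to *Notch3* *Pcdh7* (0.33), and to *Rbpj* the clock gene *Per1* (0.24). For the targets these were *Sim2* for *Hes1* (0.67), *Tac4* for *Hey1* (0.22), *Dna2* for *Hey2* (0.21) and *Slco3a1* for *Heyl* (0.25). For the ligands they were *Tspan14* for *Dll1* (0.14) and *Pelo* for *Jag1* (0.32). *Hes1* had the least close neighbour of the 10, and only 0.780% of genes shared its set of marks. That set includes H3K27me3, called through the peaks at different places described above. The call was lost with peaks of a q-value of at most 0.05 alone.

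Of 44 other genes of the pathway, 43 had ATAC-seq, 42 H3K4me3 and 34 H3K27ac promoter peaks in both replicates, and 6 had H3K27me3. The shares of all protein-coding genes were 67.8%, 60.8%, 46.6% and 4.81%. Active marks with no H3K27me3 in either replicate were found at 33 of the 44, against 44.4%. The machinery common to all Notch signals was marked throughout. The 8 genes of ligand and receptor cleavage, among them *Adam10* and the γ-secretase subunits, the 5 coactivators and the 4 corepressors all carried ATAC-seq, H3K4me3 and H3K27ac and no H3K27me3. Of 10 genes of trafficking and turnover, such as *Numb* and *Mib1*, the same was true of 9, with *Neurl1a* also having an H3K27me3 peak of 3.38 in replicate 1. The remaining receptor, *Notch4*, was in the active state, with H3K27ac of 9.51 and 9.93.

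None of the 4 other ligands had H3K27ac in either replicate. *Dll4*, the ligand of endothelial cells, had H3K4me3 of 13.2 and 7.21 with H3K27me3 of 5.25 and 4.91, and *Dll3* had 5.74 and 5.01 with 3.75 and 4.11. *Dlk1* had H3K27me3 of 3.08 in replicate 2 alone, and *Jag2* had none. Of the ligands examined, *Dll1* and *Jag1* were thus the only ones with H3K27ac.

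Of the 7 other targets and related repressors, 4 had H3K27me3 in both replicates and no H3K27ac. *Hes5*, a Notch target of neural progenitors, had strong H3K4me3 of 26.9 and 23.4 beside H3K27me3 of 5.25 and 4.60. *Hes3* had H3K27me3 of 5.25 and 4.30 and *Hes2* of 4.50 and 4.79, and neither had H3K4me3 in both replicates. *Dtx1*, which encodes a ubiquitin ligase that binds Notch, had 3.75 and 4.11. *Hes6*, *Hes7* and *Nrarp*, a feedback inhibitor of Notch, carried the active marks. Among the glycosyltransferases that tune the receptors, *Pofut1*, *Poglut1* and *Rfng* had H3K27ac, while *Lfng*, with H3K27me3 of 4.11 in replicate 2, and *Mfng* did not. Every call of H3K27me3 in both replicates among these 44 genes fell away at a stricter threshold, a −log10 q of 5 or more.

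**Figure D5:**
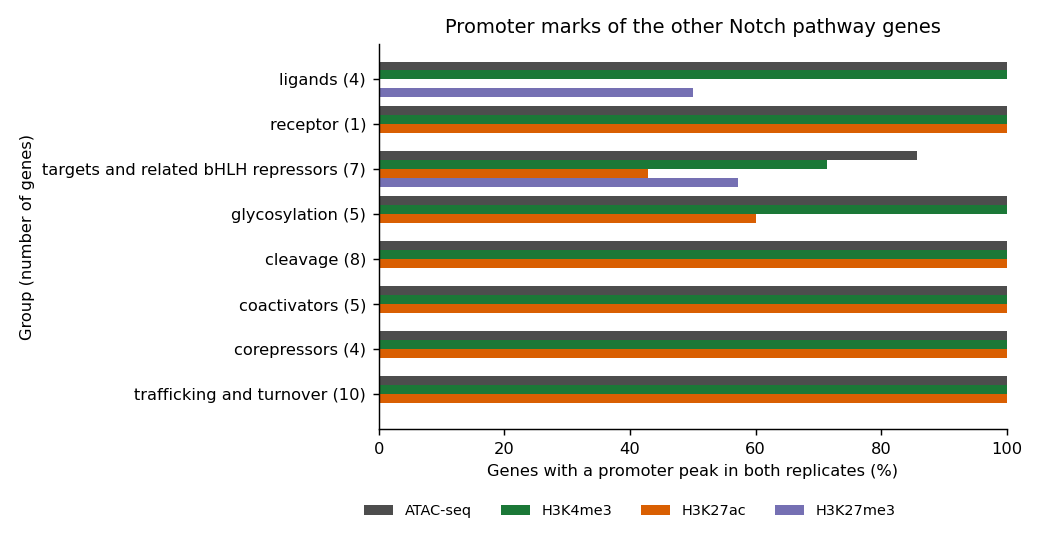
Share in percent (x axis, from 0) of the other Notch pathway genes, by group with the number of genes in brackets, whose promoter has a peak in both replicates of each mark. H3K27ac is at 0% in the 4 ligands, H3K27me3 reaches 57.1% in the 7 targets and related repressors, and the cleavage, coactivator, corepressor and turnover groups stand at 100% for the 3 active marks.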

How the data were processed

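ATAC-seq and ChIP-seq reads of the 8 chromatin libraries were, per the study's methods and the submitters' processing notes, trimmed with Trim Galore 0.6.10 and aligned to mm10 with BWA 0.7.17-r1188. SAMtools 1.5, Sambamba and bedtools removed poorly mapped reads, duplicates and blacklisted regions, Tn5 offsets were corrected with deepTools 3.5.5, and peaks were called in each library with MACS2 2.2.6. The inputs, 1 labelled for H3K27me3 and H3K4me3 and 1 for H3K27ac, were not analysed here, and whether peak calling used them is not given in the sources used here. In the deposited lists the authors give for each peak a fold enrichment at the summit (a ratio), −log10 p-values and q-values, and a score, which was not used. Depth is unknown.

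GENCODE M21 was laid over the peaks of the 21 assembled chromosomes. A promoter reached 3 kb to each side of an annotated start, overlap was counted from 1 bp, and a promoter was marked with a peak in both replicates. The strongest promoter peak was that with the highest fold enrichment. Motifs were searched in GRCm38.p6 in 300 bp around ATAC-seq summits and in RefSeq promoters of the same build. The members and all lists were chosen with earlier results of these data known. Named were all members, the pathway genes that lacked H3K4me3 in both replicates or had H3K27me3 in either, the nearest gene of each member over 8 values and its strongest distal element. Other genes, markers, neighbours, peak widths and the peaks near marked starts were chosen after their values were seen.

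Overlap counting was tested on simulated data with planted overlaps, all of which were recovered. No test between groups was run. Alternatives were another promoter width, start set, flank, peak threshold and overlap rule, and each replicate alone. The editing outcomes of the remaining samples were not analysed here. Another gene and another sequence are not reported here. Python 3.11.15, numpy 2.4.6, pandas 2.3.3 and matplotlib 3.10.9 were used.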

Additional observations from a re-analysis of the deposited data

How the results depend on the processing

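The counts of members with ATAC-seq, H3K4me3 and H3K27ac stayed within 1.5 times under all alternatives, but H3K27me3 calls did not. The 1 member with H3K27me3 in both replicates became 0 with promoters of 1 kb, with starts at the 5′ end only, with a −log10 q of at least 5 and with a q-value of at most 0.05. At a −log10 q of at least 5 the 6 other pathway genes with H3K27me3 also became 0. The mean number of H3K27me3 peaks in the windows, 7.5, became 3 with flanks of 20 kb or a q-value of at most 0.05 and 0 at the stricter threshold, and was 4 to 11 with 1 replicate left out. H3K27ac peaks in the windows fell from 78.5 to 44.5 at the stricter threshold. The 21 distal elements became 11 at that threshold, 10 with the ATAC-seq summit required inside the H3K27ac peak, and 26 to 35 with 1 replicate left out, the higher value being without replicate 2. By gene, of 240 recomputed promoter calls 9 changed. With starts at the 5′ end only, *Notch1* and *Rbpj* lost H3K4me3 and H3K27ac. *Notch3* lost ATAC-seq at 1 kb, and *Hey2* gained H3K27ac without replicate 2. Near H3K4me3-marked starts, an alternative chosen after seeing the data, the mean ATAC-seq median of the members was 8.84 instead of 9.18. No paired analysis was possible because no test between groups was run. The number of peaks differed between replicates, and the part of depth in this was not tested.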
